A study of Mus musculus with 22 samples.

Results

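The genes described here handle calcium in the sarcoplasmic reticulum, the internal calcium store of muscle cells. They are Ryr2, Trdn, Jph2, Asph, Casq1, Casq2, Hrc, Atp2a2, Pln and Sln, 10 of the 34378 gene names in the deposited normalized expression table, each taken by its exact name there. They were measured during direct cardiac reprogramming, in which cardiac fibroblasts (CF) are driven towards a cardiomyocyte state without passing through a stem cell. RNA was hybridised to 22 mouse Agilent arrays of 1 colour, 1 array per sample and 2 arrays per group. Cultures given a retrovirus that encodes the cardiac factors Mef2c, Gata4 and Tbx5 on a single polycistronic RNA (MGT) were taken at days 3, 5, 7, 10 and 14, cultures infected with a lacZ control virus on the same days, and untransduced CF at day 0. All cells came from CD1 mice of the aMHC-GFP genotype, in which GFP is under control of the Myh6 (cardiac myosin) promoter, so the lacZ and day 0 cells carried it too. The labels call the MGT samples control CF transduced with MGT, and give no sorting step and no age or number of animals. They also do not say whether the 2 samples of a group came from separate cultures or animals, so the p-values cover the spread between the samples alone, and that spread may be technical.

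In a heart muscle cell, an electrical signal opens L-type calcium channels of the surface membrane, and the calcium that enters opens the ryanodine receptor, the release channel of the sarcoplasmic reticulum. The released calcium starts contraction, and a calcium pump then returns it to the store, where binding proteins hold it until the next beat. Small membrane proteins hold the pump back, and a set of anchoring proteins keeps the release channel close to the surface membrane and to the stored calcium. Most of these proteins are scarce in fibroblasts, which release calcium mainly through inositol trisphosphate receptors.

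Each array reads a gene through probes of 60 bases, and the 10 genes had 15 probes, 7 of the genes having a single probe. The probes printed below lie in the coding part of their transcripts, and those of Atp2a2, Trdn and Asph belong to the genes whose probes did not read alike. Positions are those of the array design on mouse build mm9, and each sequence is given 5′ to 3′ in the sense of the transcript.
Atp2a2, A_52_P168097, chr5:122910660-122910719, minus strand: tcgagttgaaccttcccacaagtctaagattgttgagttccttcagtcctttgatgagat
Trdn, A_55_P2401646, chr10:32915796-32915855, plus strand: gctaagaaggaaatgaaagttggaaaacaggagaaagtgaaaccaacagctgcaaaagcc
Asph, A_52_P625171, chr4:9563054-9563113, minus strand: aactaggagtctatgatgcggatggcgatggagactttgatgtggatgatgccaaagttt
Casq1, A_51_P199104, chr1:174140602-174142105, minus strand, over an exon junction: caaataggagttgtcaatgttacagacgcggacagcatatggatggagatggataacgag

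RefSeq promoter windows, from 250 bases before to 50 bases after the start site on build GRCm38.p6, were at hand for 6 of the 10 genes (Ryr2, Pln, Casq1, Casq2, Jph2 and Hrc). Only the 250 bases before the start site were searched, on both strands, and the counts for every motif here cover these bases alone. Because Gata4 is among the delivered factors, AGATAA, a form of the GATA motif, was looked for. Of the 6 windows 1 held it, against 10.3% of 27025 genes with a window. The match lies in the window of Pln and is in capitals here as its reverse complement.
Pln promoter, chr10:53337473-53337538, plus strand: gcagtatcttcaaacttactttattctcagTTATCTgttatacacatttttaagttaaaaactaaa
The T-box letters AGGTGTG were in 0 of the 6 windows and in 5.14% of all genes, the MEF2 motif in 0 and in 0.518%, and the CArG box of SRF in 0 and in 1.4%. The E-box CANNTG was in 6 of 6 windows, against 66.0% of all genes, and did not overlap the AGATAA match. A match is only a run of letters, and no match says only that these letters are not in the 250 bases searched.

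Levels are log2 processed intensities minus the 75th percentile of the same array, so a level of 0 is as bright as that percentile. A difference is between group means on this scale, given ± its standard error (SE) from 1 limma model over all 22 arrays, and passed the test at an adjusted p (Benjamini-Hochberg over all genes) below 0.05. Where both arrays of the dimmer group were not well above background, the fold is a bound: the brighter group's mean against the higher of the dim signal and the lowest signal well above background. Of 59305 spots per array 48.4% to 71.0% exceeded background clearly. In intensity units the 75th percentile was 729 on the second day 14 lacZ array and 1285 to 2124 on all others. The day 14 differences between MGT and lacZ are also summarized without the low array, as are the changes from day 3 for Ryr2 and Casq1. The lacZ day 14 values against day 3 and day 0, and the day 14 bounds, include it. Slide 1 held days 3 and 5 of both vectors, slide 2 held days 7 and 10 of both, slide 3 held day 0 and day 14 lacZ, and slide 4 held day 14 MGT alone. At day 14 slide and vector therefore cannot be told apart, nor can slide and day in comparisons across slides.

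All 10 cardiac fibroblast markers were above background in every group, and so were all 10 cardiomyocyte markers in the untransduced CF, with a mean level of 0.12 and 0.27 on the 2 day 0 arrays. In MGT cultures the mean cardiomyocyte marker level lay between 2.48 and 3.84, against -2.81 to -0.14 in lacZ cultures. The fibroblast markers averaged 4.96 to 5.73 in MGT and 5.69 to 6.16 in lacZ cultures. The number of arrays limits the precision of every value, and in such bulk samples fewer cells of a type and less RNA per cell cannot be told apart. Mef2c itself, a delivered factor, was higher with MGT by 6.78 ± 0.52 at day 3 and 2.26 ± 0.52 at day 14 (log2).

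Averaged over days 3 to 14, 9 of the 10 genes were higher in MGT than in lacZ cultures, and only Asph was lower. Over all 18061 genes tested 63.9% passed in this comparison, 23.2% as higher and 40.7% as lower. The median difference of the 10 genes was 2.80 (log2), against -0.09 for all genes. The size ran over a wide range. Sln, an inhibitor of the calcium pump, differed by 11.28 ± 0.13, the release channel Ryr2 by 7.0 ± 0.13, the store protein Casq2 by 6.22 ± 0.05 and its partner Trdn by 5.10 ± 0.12. Atp2a2, Hrc, Pln and Casq1 differed by 2.58 to 2.84, Jph2 by 0.66 ± 0.12 and Asph by -0.17 ± 0.04. Fitted averages for Ryr2, Pln, Casq1, Sln and Trdn include lacZ arrays not well above background. Pln was above background on 0 of 10 lacZ arrays and entered the test only through MGT groups. Of all genes called, 36.4% were higher, and 49.2% when arrays were scaled on probes above background on every array.

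By day, 7 of the 10 genes were higher with MGT at day 3 (30.4% of all genes called, 12.3% higher and 18.1% lower) and 7 at day 5 (38.1% of all genes called, 16.2% higher and 21.9% lower). At day 7, 9 were higher and Asph was lower (37.3% of all genes called, 14.9% higher and 22.4% lower). At day 10, 8 were higher (39.3% of all genes called, 15.2% higher and 24.2% lower), and at day 14, 9 were higher (47.6% of all genes called, 18.2% higher and 29.3% lower). Ryr2, Trdn, Casq1, Casq2, Hrc, Atp2a2 and Sln passed on each of the 5 days, within slide 1 and within slide 2.

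**Figure D1:**
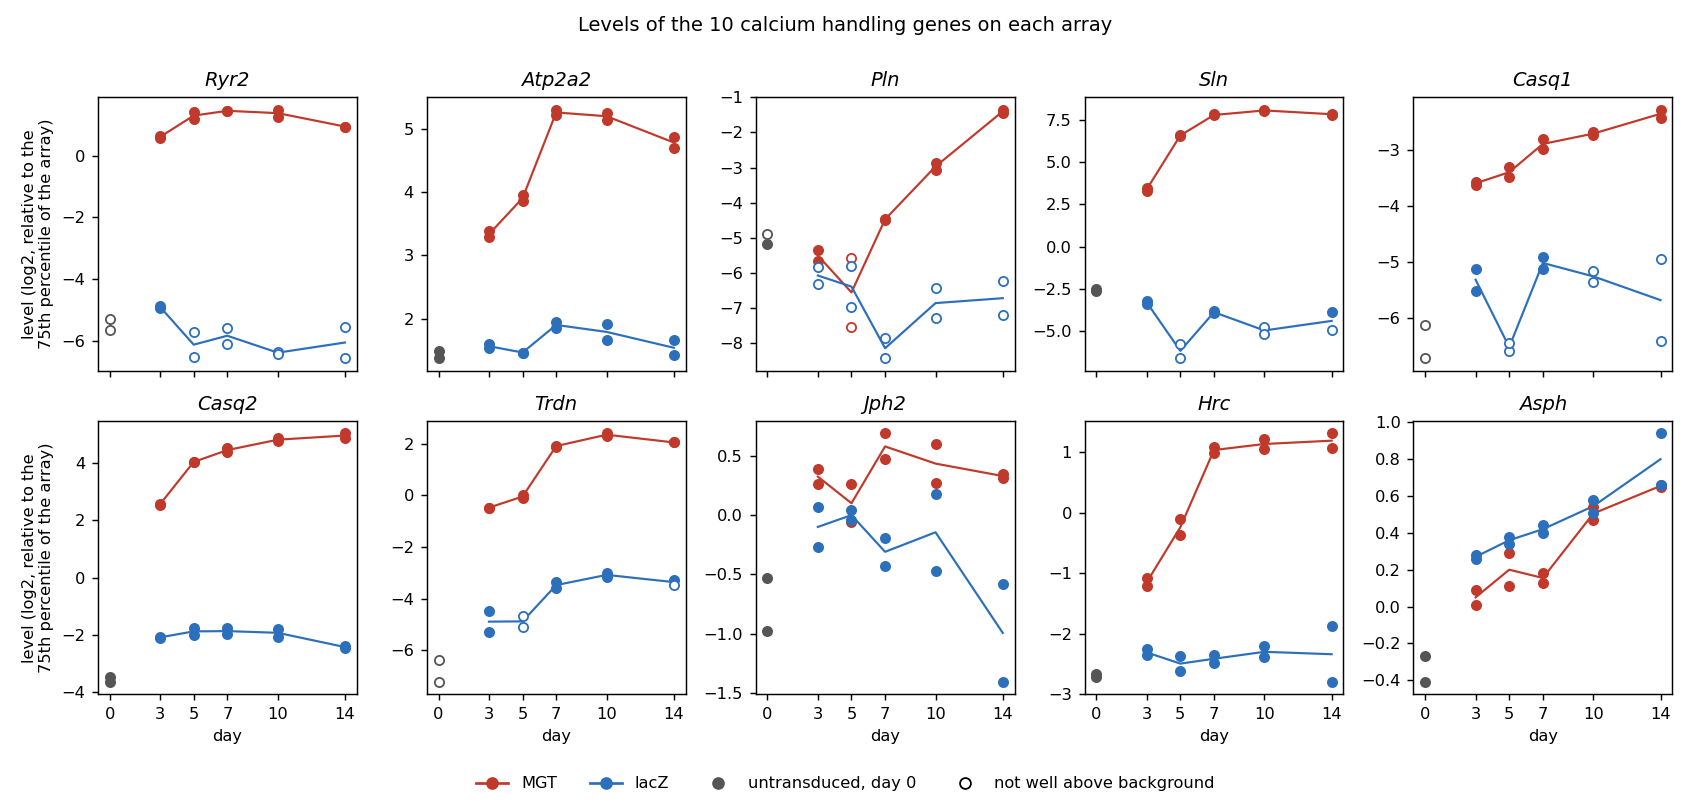
Level of each of the 10 genes on every array (vertical axis, log2 relative to the 75th percentile of the array, a scale of its own per panel) against day (horizontal axis). Points are single arrays, filled where the probe was well above background and open where it was not, and lines join the means of the 2 arrays for MGT (red) and lacZ (blue), with untransduced CF at day 0 in grey. Ryr2 with MGT stood at 0.58 and 0.63 at day 3, far above every lacZ array and below its MGT levels on later days, while Pln with MGT stood at -1.35 and -1.45 at day 14 and lower on every earlier day.

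Ryr2 encodes the cardiac ryanodine receptor, the channel through which the store empties. Its level with MGT was 0.58 and 0.63 at day 3, 1.42 and 1.17 at day 5, 1.44 and 1.46 at day 7, 1.26 and 1.49 at day 10, and 0.94 and 0.94 at day 14. In lacZ cultures it was -4.93 and -4.88 at day 3 and between -6.57 and -5.55 on the later days, where 0 of 8 arrays were well above background. The MGT and lacZ arrays did not overlap on any day. Among MGT arrays, those of day 10 overlapped those of days 5 and 7, while those of days 5 and 7 did not overlap. At day 3, where both groups were above background, the difference was 5.51 ± 0.30, or 45.5-fold (adjusted p = 1.73e-08). On the later days Ryr2 was at least 57.9-fold higher at day 5, 156-fold at day 7, 189-fold at day 10 and 50.3-fold at day 14, with adjusted p from 7.57e-10 to 2.83e-10. Day 0 CF had -5.29 and -5.64, both not well above background, so MGT cultures at day 3 were already at least 65.8-fold higher than the starting cells.

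Trdn encodes triadin, which ties the release channel to calsequestrin inside the store. With MGT it had -0.48 and -0.47 at day 3, 0.00 and -0.09 at day 5, 1.93 and 1.89 at day 7, 2.40 and 2.30 at day 10, and 2.05 and 2.05 at day 14. In lacZ cultures it had -4.49 and -5.29 at day 3, -5.09 and -4.67 at day 5, -3.59 and -3.36 at day 7, -2.99 and -3.17 at day 10, and -3.26 and -3.46 at day 14. Neither day 5 lacZ array was well above background, nor was the second at day 14. The groups lay far apart on every day. With both vectors the day 7 levels stood above those of day 5, across slides, but this step was not tested in lacZ cultures. The difference was 4.42 ± 0.26 at day 3 (adjusted p = 4.02e-08) and 5.42 ± 0.26 at day 14 (adjusted p = 2.51e-09). Trdn was also the member that stood furthest above day 0 in lacZ cultures, by 3.44 ± 0.26 at day 14 (adjusted p = 6.1e-08), at least 4.69-fold higher, since neither day 0 array was above background.

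Jph2 encodes junctophilin 2, which bridges the surface membrane and the sarcoplasmic reticulum. It differed least among the genes that were higher. Its MGT arrays lay between -0.06 and 0.69 and its lacZ arrays between -1.41 and 0.18, and all 20 were above background. It passed at day 7, with 0.89 ± 0.27 (adjusted p = 0.0187), and at day 14, with 1.32 ± 0.27 (adjusted p = 0.00128). At day 3 it differed by 0.43 ± 0.27 (adjusted p = 0.278), at day 5 by 0.10 ± 0.27 (adjusted p = 0.807) and at day 10 by 0.58 ± 0.27 (adjusted p = 0.105), so no difference was shown on those days. The day 7 call was lost without the first lacZ array (adjusted p = 0.11) or the first MGT array (adjusted p = 0.114). The day 14 call was lost when only the 4 arrays of that day were fitted (adjusted p = 0.0806).

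Asph encodes aspartate beta-hydroxylase and, through other transcripts of the same gene, junctin, a partner of triadin at the release channel. Its brightest probe read between 0.01 and 0.66 with MGT and between 0.26 and 0.94 with lacZ, all above background, and rose over the days with both vectors. It was lower with MGT by -0.26 ± 0.09 at day 7 (adjusted p = 0.0317), a call lost without any 1 of the 4 arrays of that day (adjusted p from 0.0751 to 0.144), and it did not pass on the other days. The averaged difference of -0.17 ± 0.04 (adjusted p = 0.00231) became 0.18 in the authors' deposited table (adjusted p = 0.0111), 0.37 as the mean of its 3 probes (adjusted p = 8.13e-05), and -0.09 when arrays were scaled on probes above background on every array (adjusted p = 0.0742).

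Among the proteins inside the store, Casq2 encodes cardiac calsequestrin, its main calcium buffer. With MGT it had 2.59 and 2.55 at day 3, 4.06 and 4.04 at day 5, 4.54 and 4.39 at day 7, 4.88 and 4.78 at day 10, and 5.05 and 4.90 at day 14. All 10 lacZ arrays were above background and lay between -2.47 and -1.75, so the groups did not overlap on any day. The difference was 4.67 ± 0.12 at day 3, 25.4-fold (adjusted p = 1.95e-11), and 7.41 ± 0.12 at day 14, 170-fold (adjusted p = 1.57e-13). Day 0 CF had -3.66 and -3.47, below every lacZ array, and lacZ was higher than day 0 by 1.47 ± 0.12 at day 3 (adjusted p = 2.6e-07).

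Casq1 encodes the calsequestrin of fast skeletal muscle. Its MGT arrays went no lower than -3.62 and no higher than -2.27, all above background, and its lacZ arrays lay between -6.59 and -4.90, 4 of 10 above background. Where both groups were above background, the difference was 1.72 ± 0.34 at day 3, 3.30-fold (adjusted p = 0.00177), and 2.13 ± 0.34 at day 7, 4.38-fold (adjusted p = 0.00024). It was at least 2.25-fold higher with MGT at day 5, 5.88-fold at day 10 and 5.03-fold at day 14. Of 12 skeletal muscle markers 9 were higher and 1, Ryr1, was lower with MGT on average, beside 23.2% higher and 40.7% lower of all genes. The mean level of the markers per array was -3.28 to -2.01 in MGT and -4.64 to -3.55 in lacZ cultures. Some of these calls rest on dim signal. Myh4, called higher, was above background on 5 of 10 MGT and 0 of 10 lacZ arrays, and Ryr1 on 0 of 10 and 2 of 10. Of the defining factors, Myog was higher with MGT (0.56 ± 0.15, adjusted p = 0.00505), above background on 4 of 10 MGT and 0 of 10 lacZ arrays. Myod1 differed by -0.02 ± 0.13 (adjusted p = 0.913), and Pax7 was above background on 2 of 10 MGT and 0 of 10 lacZ arrays. Their part in the Casq1 result was not tested.

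Hrc encodes the histidine-rich calcium binding protein, which binds triadin and the pump. Its level with MGT was -1.08 and -1.22 at day 3, -0.11 and -0.37 at day 5, 1.09 and 0.98 at day 7, 1.21 and 1.06 at day 10, and 1.31 and 1.07 at day 14. All 10 lacZ arrays were above background and lay between -2.80 and -1.88, and the day 0 arrays at -2.66 and -2.71 fell within that range. The difference was 1.16 ± 0.22 at day 3, 2.23-fold (adjusted p = 0.00119), and 3.45 ± 0.22 at day 7, 10.9-fold (adjusted p = 3.95e-08), close to the 3.53 ± 0.22 of day 14 (adjusted p = 2.97e-08).

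Atp2a2 encodes SERCA2, the pump that refills the store. With MGT it had 3.38 and 3.29 at day 3, 3.95 and 3.86 at day 5, 5.30 and 5.21 at day 7, 5.25 and 5.14 at day 10, and 4.86 and 4.70 at day 14. In lacZ cultures all 10 arrays lay between 1.43 and 1.95, near the 1.49 and 1.38 of day 0 CF. The pump was thus well measured in fibroblasts too, and MGT arrays were above all others on each day. The difference was 1.76 ± 0.10 at day 3, 3.40-fold (adjusted p = 2.37e-08), 3.40 ± 0.10 at day 10, 10.5-fold (adjusted p = 2.19e-11), and 3.23 ± 0.10 at day 14 (adjusted p = 3.15e-11). Neither lacZ group tested against day 0 passed (0.13 ± 0.10 at day 3, adjusted p = 0.271, and 0.11 ± 0.10 at day 14, adjusted p = 0.344).

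Pln encodes phospholamban, which restrains SERCA2 until it is phosphorylated. It was dim in all groups before day 7. With MGT it had -5.34 and -5.67 at day 3, both well above background, -5.57 and -7.54 at day 5, where neither array was well above background, -4.48 and -4.47 at day 7, -2.87 and -3.07 at day 10, and -1.35 and -1.45 at day 14. The lacZ arrays lay between -8.43 and -5.81, and 0 of 10 were well above background, while 1 of 2 day 0 arrays was. In the authors' deposited table Pln read 684 and 634 intensity units in day 14 MGT, against 29.1 and 40.4 units in day 14 lacZ. No difference was shown at day 3 (0.57 ± 0.55, adjusted p = 0.517). At day 5 it was -0.16 ± 0.55 (adjusted p = 0.848), and the sign at day 5 turned under 4 of the other settings tried. Pln was at least 2.75-fold higher at day 7 (adjusted p = 0.000144), 9.56-fold at day 10 (adjusted p = 8.86e-05) and 9.94-fold at day 14 (adjusted p = 4.7e-06). Averaged within slide 1 (days 3 and 5) the difference was 0.20 (adjusted p = 0.711), and within slide 2 (days 7 and 10) it was 3.78 (adjusted p = 2.81e-06).

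Sln encodes sarcolipin, an inhibitor of the pump that marks atrial and skeletal muscle. With MGT it had 3.47 and 3.31 at day 3, 6.60 and 6.56 at day 5, 7.82 and 7.76 at day 7, 8.11 and 8.01 at day 10, and 7.86 and 7.81 at day 14. In lacZ cultures it had -3.21 and -3.40 at day 3, -5.74 and -6.61 at day 5, -3.82 and -3.95 at day 7, -4.77 and -5.16 at day 10, and -3.86 and -4.94 at day 14. No lacZ array reached the day 0 levels of -2.62 and -2.51, and every MGT array was above them. The difference was 6.70 ± 0.30 at day 3, 104-fold (adjusted p = 3.16e-09), and 11.67 ± 0.30 at day 7, 3270-fold (adjusted p = 9.07e-12). Sln was at least 2260-fold higher at day 5 and 8300-fold at day 10, where neither lacZ array was above background. At day 14 it differed by 12.24 ± 0.30 (adjusted p = 4.77e-12), with 1 of 2 lacZ arrays above background.

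**Figure D2:**
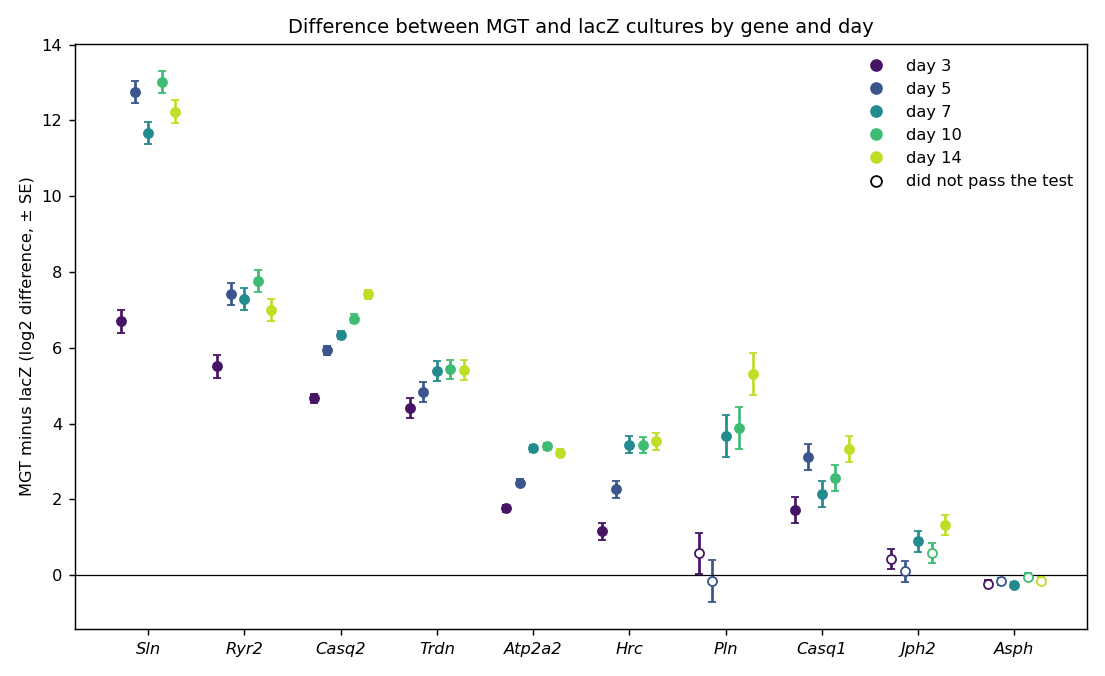
MGT minus lacZ (vertical axis, log2 difference of group means with bars of ± SE) for each gene (horizontal axis, ordered by the averaged difference) on days 3, 5, 7, 10 and 14 (colours), with open points where the adjusted p was 0.05 or more. Sln lay between 6.70 and 13.02 on all days, Pln passed only on days 7, 10 and 14, and Asph stayed within 0.26 of 0.

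The difference between MGT and lacZ was larger at day 14 than at day 3 for 7 of the 10 genes (27.6% of all genes called, 12.3% higher and 15.3% lower). The change was 5.54 ± 0.42 for Sln (adjusted p = 1.53e-06), 4.75 ± 0.78 for Pln (adjusted p = 0.000731), 2.74 ± 0.17 for Casq2 (adjusted p = 2.27e-07), 2.37 ± 0.31 for Hrc (adjusted p = 0.000124) and 1.47 ± 0.14 for Atp2a2 (adjusted p = 8.48e-06). Casq1 changed by 1.61 ± 0.48 (adjusted p = 0.0252) and Ryr2 by 1.49 ± 0.42 (adjusted p = 0.0183). The day 14 lacZ arrays of Ryr2, Casq1 and Pln, and the day 3 lacZ arrays of Pln, were not well above background, so the sizes of these 3 changes rest on signal at background and are not measured. As measured values and bounds, Ryr2 was at least 50.3-fold higher at day 14 and 45.5-fold at day 3, and Casq1 at least 5.03-fold at day 14 and 3.30-fold at day 3. Ryr2 no longer passed without the second day 3 lacZ array, the first day 3 MGT array or either day 14 MGT array (adjusted p from 0.0501 to 0.054). The Casq1 call was lost without the first day 3 lacZ array or any of the 4 MGT arrays (adjusted p from 0.0534 to 0.0919). Both were lost when only the 8 arrays of these days were fitted (adjusted p = 0.0707 for Ryr2 and 0.147 for Casq1). Trdn (1.00 ± 0.37, adjusted p = 0.0595), Jph2 (0.90 ± 0.38, adjusted p = 0.0979) and Asph (0.08 ± 0.12, adjusted p = 0.683) did not pass, and Trdn passed under 5 other settings, with 1.05 to 1.99.

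The array with the low 75th percentile touched these day 14 values. Without it the day 14 differences of the 9 higher genes ran between 0.91 for Jph2 and 11.69 for Sln, all passing, and Asph passed as lower by -0.29 (adjusted p = 0.0121). The change over time was then 0.88 for Casq1 (adjusted p = 0.0387) and 2.0 for Ryr2 (adjusted p = 0.00144).

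Within MGT cultures the genes that passed were not the same in every step, and whether the genes rose on different days was not tested. Between days 3 and 5, on 1 slide, 4 of the 10 rose (27.5% of all genes called, 13.4% higher and 14% lower): Sln by 3.19 ± 0.30 (adjusted p = 7.11e-06), Casq2 by 1.48 ± 0.12 (adjusted p = 1.9e-06), Hrc by 0.91 ± 0.22 (adjusted p = 0.00748) and Atp2a2 by 0.57 ± 0.10 (adjusted p = 0.000822). Between days 5 and 7, across slides, 6 rose (19.2% of all genes called, 9.81% higher and 9.43% lower). Pln was at least 1.72-fold higher (adjusted p = 0.0193), as neither day 5 array was above background. Trdn differed by 1.96 ± 0.26 (adjusted p = 0.000214), Atp2a2 by 1.35 ± 0.10 (adjusted p = 2.24e-06), Hrc by 1.27 ± 0.22 (adjusted p = 0.00136), Sln by 1.21 ± 0.30 (adjusted p = 0.0129) and Casq2 by 0.42 ± 0.12 (adjusted p = 0.0258). Some of these 6 calls were lost without the second day 5, the first day 7 or the second day 7 MGT array. Between days 7 and 10, on 1 slide, only Asph passed, by 0.35 ± 0.09 (adjusted p = 0.0392, 4.56% of all genes called, 2.21% higher and 2.35% lower), a call lost without any 1 of the 4 arrays. Pln had 1.5 ± 0.55 there (adjusted p = 0.162).

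From day 10 to day 14, across slides, Pln was higher by 1.57 ± 0.55 (adjusted p = 0.0442) and Atp2a2 was lower by -0.41 ± 0.10 (adjusted p = 0.00677), the only members to pass (33.9% of all genes called, 18.9% higher and 14.9% lower). The Pln call was lost without any 1 of the 4 arrays, and the Atp2a2 call without the first day 10 or the second day 14 array. At day 14 against day 3, 8 genes were higher with MGT (54.2% of all genes called, 26.7% higher and 27.5% lower), and Ryr2 (0.34 ± 0.30, adjusted p = 0.359) and Jph2 (0.00 ± 0.27, adjusted p = 0.996) did not pass. In order of level with MGT, Pln was highest at day 14, then at days 10 and 7 with no overlap between them. For Ryr2 days 7, 10 and 5 stood above days 14 and 3, and day 10 overlapped both day 7 and day 5.

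In lacZ cultures 2 genes were higher and 4 lower at day 14 than at day 3 (56.8% of all genes called, 29.3% higher and 27.5% lower). Trdn was higher by 1.53 ± 0.26 (adjusted p = 0.000246, 1 of 2 day 14 arrays above background) and Asph by 0.53 ± 0.09 (adjusted p = 0.000223). Sln was lower by -1.10 ± 0.30 (adjusted p = 0.00694, 1 of 2 day 14 arrays above background), Jph2 by -0.90 ± 0.27 (adjusted p = 0.0122) and Casq2 by -0.34 ± 0.12 (adjusted p = 0.0265). Ryr2 passed as lower too (adjusted p = 0.00483), but neither day 14 array was above background and no size can be given. When the 4 arrays alone were fitted, 1 member passed in place of 6. Already at day 5 against day 3, on 1 slide, Sln was lower by -2.87 ± 0.30 (adjusted p = 2.17e-05), at least 2.39-fold, with 29.6% of all genes called, 14.1% higher and 15.5% lower. Ryr2 (adjusted p = 0.00754) and Casq1 (adjusted p = 0.0183) also passed as lower, with neither day 5 array above background, so no size can be given. Some of these 3 calls were lost without the second day 5 lacZ array. Between days 7 and 10 of lacZ only Sln passed, at least 2.11-fold lower (adjusted p = 0.0416, 9% of all genes called, 3.87% higher and 5.13% lower), and this call was lost without either day 7 array or the second day 10 array. The 10 cardiomyocyte markers moved alongside, with mean levels of -2.81 and -2.63 at day 14 and -2.19 and -1.90 at day 5 of lacZ, against -0.21 and -0.14 at day 3. Their part in these values was not tested.

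Against the untransduced CF, MGT cultures were higher for 9 of the 10 genes at day 3 (62.4% of all genes called, 29.3% higher and 33.1% lower) and for all 10 at day 14 (70.5% of all genes called, 33.1% higher and 37.4% lower), both across slides. Pln was the exception at day 3, with -0.48 ± 0.55 (adjusted p = 0.471), and at day 14 it was higher by 3.62 ± 0.55 (adjusted p = 5.55e-05). The largest measured day 14 differences were 10.40 ± 0.30 for Sln and 8.54 ± 0.12 for Casq2, and the smallest were 1.08 ± 0.27 for Jph2 and 0.99 ± 0.09 for Asph. Trdn was at least 200-fold higher at day 14, as neither day 0 array was above background, so its place beside Casq2 is not measured. LacZ cultures at day 3 were higher for Casq1, Casq2, Trdn and Asph and lower for Sln (57.8% of all genes called, 28.8% higher and 29% lower). Some of these calls were lost without the first day 0 or the first day 3 lacZ array. The Sln call (-0.74 ± 0.30, adjusted p = 0.0489) was lost without any 1 of the 4 arrays. At day 14, on the same slide as day 0, lacZ was higher for Casq2, Trdn and Asph and lower for Pln and Sln (68.9% of all genes called, 35.5% higher and 33.4% lower). Sln was then lower by -1.83 ± 0.30 (adjusted p = 0.000102). Pln passed as lower (adjusted p = 0.0152), but no size can be given, with 0 of 2 lacZ arrays and 1 of 2 day 0 arrays above background.

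The probes of 1 gene did not always tell the same story, and a probe's level is not set against another's here, only its difference between MGT and lacZ. For Atp2a2 the brightest probe, A_51_P451075, gave 2.84 ± 0.05 on average and A_52_P168097, printed above, gave 1.85 ± 0.07. The gap of -0.99 ± 0.04 passed (adjusted p = 1.46e-09), where 25.9% of 5719 such probe pairs passed. It was present on each day, from -0.88 at day 3 to -1.12 at day 10. In the design's annotation the brightest probe (chr5:122903704-122903763) is assigned to 1 protein-coding RefSeq transcript of the gene and the other to 2.

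For Trdn the printed probe A_55_P2401646 and A_51_P249608 (chr10:32919981-32920040) gave 5.10 and 5.86, a gap of 0.77 ± 0.26 (adjusted p = 0.0477). A_55_P1966778 lies far downstream at chr10:33194264-33194323, in the last part of a long transcript. It was above background on 6 of 10 MGT arrays, those of days 7, 10 and 14, and on 1 of 10 lacZ arrays, and on 0 arrays of either vector at days 3 and 5, so the size of its difference is not measured. Triadin is known to have a shorter form in heart and longer forms in skeletal muscle.

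For Asph the printed probe A_52_P625171 gave -0.15 ± 0.09 (adjusted p = 0.178), close to the -0.17 of the brightest, A_55_P2379599. The third, A_55_P1967414 (chr4:9548068-9548127), had -5.21 and -5.49 with MGT at day 3, -5.02 and -4.55 at day 5, -4.49 and -4.38 at day 7, -4.58 and -4.61 at day 10, and -3.81 and -3.82 at day 14. In lacZ cultures 1 of 10 arrays was above background, against 9 of 10 with MGT, and both day 0 arrays were above it at -4.49 and -4.29. Its difference was 1.44 ± 0.13 on average (adjusted p = 5.45e-07) and 2.37 ± 0.29 at day 14 (adjusted p = 2.79e-05). The gap to the brightest probe was 1.61 ± 0.13 (adjusted p = 9.54e-07), but the sizes for this probe rest on lacZ signal mostly not well above background. Its sign differed from that of the brightest probe.

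**Figure D3:**
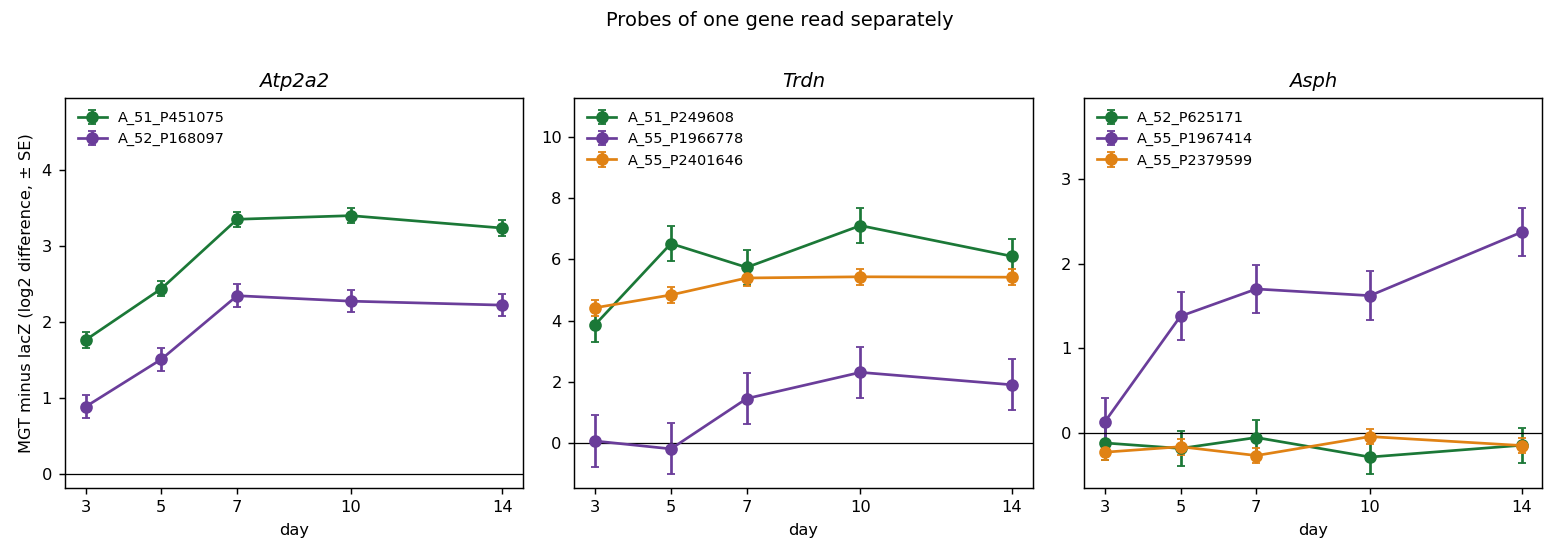
MGT minus lacZ (vertical axis, log2 difference with bars of ± SE) against day (horizontal axis) for each probe of Atp2a2, Trdn and Asph. The Asph probe A_55_P1967414 rose to 2.37 at day 14 while the other probes of the gene stayed below 0, and the Trdn probe A_55_P1966778, not well above background on most arrays, lay under the others of its gene on every day.

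Around the release channel, 7 of 16 further genes for release, anchoring and ion counterflow were higher with MGT on average and 3 were lower, with a median of 0.28 (log2). Dhrs7c, a dehydrogenase of the sarcoplasmic reticulum, was at least 6.32-fold higher (adjusted p = 2.82e-11). It was above background on 9 of 10 MGT and 0 of 10 lacZ arrays, so its fitted difference of 4.47 ± 0.16 is not measured. Of the groups compared here, only MGT groups could bring it through the filter. Akap6, a scaffold for protein kinase A, was higher by 2.21 ± 0.03 (adjusted p = 1e-14), Jph1, the junctophilin of skeletal muscle, by 2.14 ± 0.16 (adjusted p = 7.92e-08), and the muscle kinase Speg by 1.62 ± 0.04 (adjusted p = 1.54e-12). Jph1 was above background on 2 of 10 lacZ arrays, so its size rests mostly on lacZ signal not well above background. The other release channels did not follow Ryr2. Ryr3 was at least 1.48-fold lower (adjusted p = 5.05e-05). It was above background on 0 of 10 MGT and 4 of 10 lacZ arrays, so its fitted difference of -1.49 ± 0.22 is not measured. Ryr1, the skeletal channel, was above background on 0 MGT and 2 lacZ arrays (-0.80 ± 0.32, adjusted p = 0.0429).

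Of 11 measured genes for uptake and its regulators, 7 were higher and 1 lower, with a median of 0.59. Srl, the luminal protein sarcalumenin, was higher by 4.74 ± 0.08 (adjusted p = 2.64e-14), Atp2a1, the skeletal muscle pump SERCA1, by 1.63 ± 0.22 (adjusted p = 1.84e-05), and the kinase subunits Camk2a by 1.56 ± 0.08 (adjusted p = 1.15e-09) and Camk2b by 1.52 ± 0.05 (adjusted p = 2.26e-11). Srl was above background on 4 of 10 lacZ arrays, so its size rests partly on lacZ signal not well above background. Atp2a3, the pump SERCA3, had 0.30 ± 0.15 (adjusted p = 0.0926). The gene that was lower, Ppp1r1a, named after its value was seen, was not well above background on any array of either vector.

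Among 7 surface membrane partners, 6 were higher and 1 lower, with a median of 0.79. Cav3, the caveolin of muscle, was higher by 2.40 ± 0.04 (adjusted p = 2.51e-14), the L-type channel subunit Cacna1c by 2.04 ± 0.06 (adjusted p = 7.2e-12), its skeletal counterpart Cacna1s by 1.25 ± 0.12 (adjusted p = 1.09e-06), and the sodium-calcium exchanger Slc8a1 by 0.79 ± 0.06 (adjusted p = 1e-07). General stores of the endoplasmic reticulum were split, with 5 of 18 higher, 7 lower and a median of 0.01. Orai1, a store-operated entry channel, was higher by 0.64 ± 0.06 (adjusted p = 6.39e-07) and the calcium binding Sdf4 by 0.23 ± 0.04 (adjusted p = 0.000134), while the inositol trisphosphate receptor Itpr2 was lower by -0.45 ± 0.03 (adjusted p = 5.61e-09) and the reticulocalbin Rcn1 by -0.27 ± 0.05 (adjusted p = 3e-04). These counts are read beside the 23.2% higher and 40.7% lower of all genes.

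**Figure D4:**
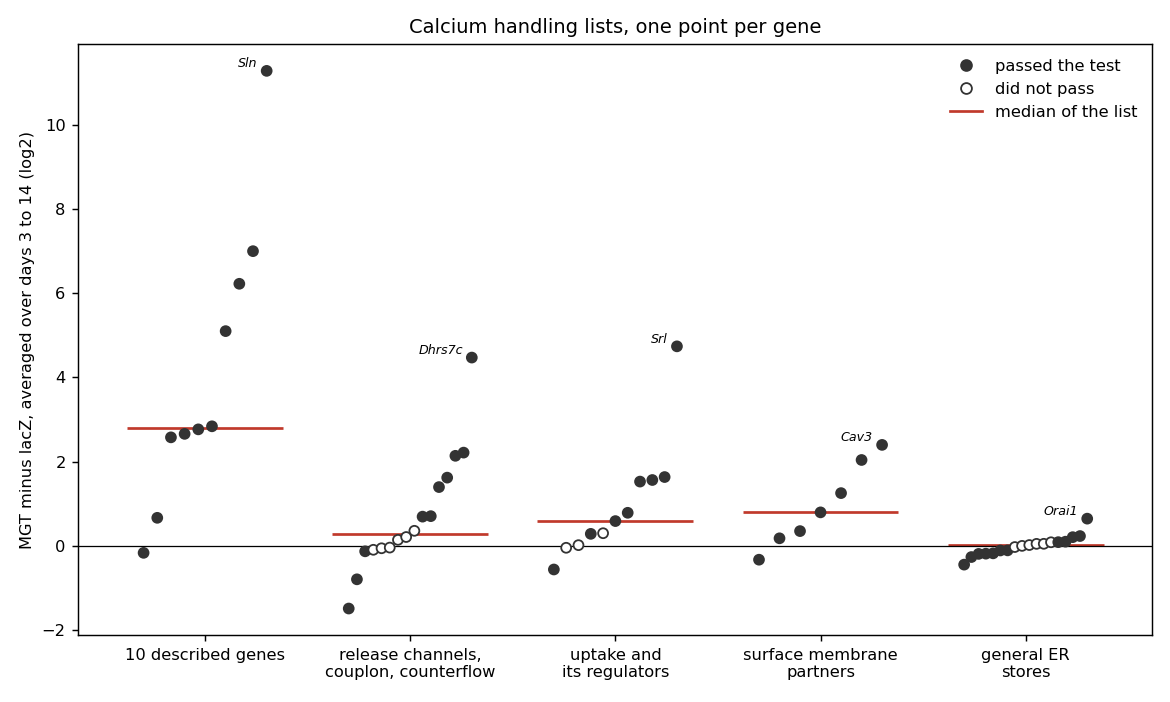
MGT minus lacZ averaged over days 3 to 14 (vertical axis, log2 difference), 1 point per gene, for the 10 described genes and 4 further calcium handling lists (horizontal axis). Filled points passed the test. Red lines are the medians, 2.80 for the 10 genes and 0.28, 0.59, 0.79 and 0.01 for the lists in the order shown. The gene with the largest difference of each list is named, and that of Dhrs7c rests on lacZ signal not well above background.

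Across the 11 group means, which share arrays, culture days and vectors, the genes with the most similar pattern were found among 9723 candidates. For Ryr2 they were Rrad, Myl7 and Marchf11 (Pearson r of 0.9928, 0.99189 and 0.98936), for Casq2 Pacsin3, Colq and Dsp (at least 0.99392), and for Sln Cap2, Lrrc3b and Alpk3 (at least 0.99055). Trdn was nearest to Obsl1, Fry and Ank (at least 0.98784), and Casq1 to Slitrk4, Fgf1 and Dlc1 (at least 0.98251). Pln had less similar neighbours, Gm3448, Adamts19 and Sprr1a (0.95271, 0.94448 and 0.93298), and so had Jph2, with Fam171a2, Dusp27 and Mpp5 (0.94617 to 0.93135). Asph was nearest to 1110046J04Rik, Copz2 and Rab11fip5 (0.98618 to 0.97452) and had r of -0.092 to 0.299 with the 9 other members. Among those 9, r ran from 0.517 between Pln and Jph2 to 0.989 between Atp2a2 and Hrc.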

How the data were processed

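Total RNA was labelled with Cy3 and hybridised to Agilent mouse 8x60K arrays. Per the file headers, the deposited processed intensity of each spot came from Agilent Feature Extraction 10.7.3.1, with background subtracted within the array and no normalization between arrays, and the mean spot and local background intensities are deposited beside it. The authors' deposited table, with a single intensity for each gene name on each array, served as an alternative. Of its making the submitters' processing notes name limma, and its scale and centring are not given in the sources used here. Any log2 value was computed here from the deposited intensity, minus the 75th percentile of each array over non-control spots. Control and outlier spots were left out, and 0 spots were saturated.

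Spots of 1 probe were averaged. Probes well above background on both arrays of any group were kept (38813, with 16868 left out), and the brightest of them stood for a gene (18062 genes, and 18061 where day 3 lacZ entered). All 10 members passed this filter, but Pln did so only through MGT groups, where it was also called higher. The Trdn probe A_55_P1966778 was kept in the same way. One limma 3.58.1 model of 11 group means in R 4.3.3 (11 residual and 1.66 prior degrees of freedom) gave 19 comparisons, with Benjamini-Hochberg adjustment within each. Probes of a gene were also fitted singly and as differences from the brightest. Steps were tested on simulated data. The members and the gene lists were chosen with earlier results of these data known. Named were the 10 members, up to 4 genes of each list with the largest averaged difference among those passing, the paralogues Ryr1, Ryr3, Atp2a1, Atp2a3 and Jph1, and the 3 genes most like each member by Pearson r, among genes above background on at least 11 arrays with a range of group means of at least 1. The genes most like Atp2a2 and Hrc are not reported here. Alternatives were another background correction (normexp, offset 50, with quantile normalization), the authors' table, another scaling, other probe filters, the mean of the probes of a gene, fits on fewer arrays, a replicate block, and leaving out each array. The steps from day 5 to 7 and from day 10 to 14 with MGT, the fits of probes and the mean over days 3 to 10 were added after seeing the data.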

Additional observations from a re-analysis of the deposited data

Results flagged for a closer look

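For 7 of the 10 genes the difference between MGT and lacZ cultures was not the same at day 14 as at day 3, by the test of that change itself. The change, day 14 minus day 3 on the log2 scale, was 5.54 for Sln, 4.75 for Pln, 2.74 for Casq2, 2.37 for Hrc, 1.61 for Casq1, 1.49 for Ryr2 and 1.47 for Atp2a2, all larger at day 14. The day 14 lacZ arrays of Pln, Casq1 and Ryr2 were not well above background, so the sizes for these 3 genes are not measured. Within lacZ cultures Sln was lower by -1.10 ± 0.30 at day 14 than at day 3 (log2 ± SE). Within MGT cultures Pln was higher by 4.10 ± 0.55 at day 14. The calls for Ryr2 and Casq1 were lost without single arrays, and the Casq1 change was 0.88 without the second day 14 lacZ array. The 2 vectors lay on separate slides at day 14, so slide and vector cannot be told apart in these values.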

How the results depend on the processing

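Over the averaged and daily differences between MGT and lacZ and their change, 982 member results kept their direction and their side of the threshold under the alternatives, 24 no longer passed, 11 newly passed and 18 turned sign. In the authors' deposited table Asph turned to 0.18 on average, and by day to 0.12 (day 5), 0.2062 (day 7), 0.2059 (day 10) and 0.38 (day 14). As the mean of its probes, which read differently, it turned to 0.37, 0.35, 0.46, 0.43 and 0.69 in the same order. It also turned at day 10 to 0.035 when arrays were scaled on probes above background on every array, and in its change over time to -0.09 with normexp and to -0.065 without the second day 14 lacZ array. Pln at day 5, where neither group was well above background, turned to 0.22 with normexp, 0.58 in the deposited table, and ranged over -1.15 to 0.83 without 1 array of that day (0.42 without the second lacZ and 0.83 without the second MGT array). Jph2 at day 5 ranged over -0.059 to 0.26, the lowest without the second MGT array. For Pln and Jph2 the cause was not tested.

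Restricted to probes above background on every array, only 5 members could be tested, so their counts fell by construction. The share of all genes called in this setting is not given here, so these counts are not read as a result about the members. For MGT against lacZ 5 passed on average, 3 on each of days 3, 5 and 10, 5 on day 7 and 4 on day 14, and 3 for the change. In the same setting 4 passed for MGT day 14 against day 3, 3 for MGT day 7 against day 5, 1 for MGT day 14 against day 10, 3 for lacZ day 14 against day 3, 0 for lacZ day 5 against day 3 and for lacZ day 10 against day 7, 5 for MGT at day 3 and at day 14 against day 0, 3 for lacZ at day 3 and 2 for lacZ at day 14 against day 0.

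Fits on only the arrays of a comparison called 3286 genes at day 10 (7105 in the fit of all arrays), 2699 at day 14 (8591), 3294 for the change (4978), 5436 for lacZ day 14 against day 3 (10255), 8148 for lacZ day 5 against day 3 (5348), 2127 for MGT day 7 against day 5 (3474), 2 for MGT day 10 against day 7 (824), and 0 for lacZ day 10 against day 7 (1626, and 1069 in the deposited table). Members passing then numbered 1 for lacZ day 14 against day 3 (6 in the fit of all arrays) and 0 for either vector at day 10 against day 7 (1 each). They numbered 8 for lacZ day 3 against day 0 (5) and 5 for MGT day 14 against day 10 (2). For these last comparisons the number of all genes called in the restricted fit is not given here. The fit of all arrays called 57.8% and 33.9% of all genes in them, so their member counts are not read as a result about the members. The limma test of MGT day 10 against day 7 called 3 members with normexp and 0 in the deposited table, without a filter, with the mean of the probes and with the replicate block. For lacZ it called 0 with normexp and in the deposited table. For MGT day 14 against day 10 the deposited table and the replicate block called 1 member each.

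Leaving out 1 array called 280 to 419 genes for MGT day 10 against day 7, 3303 to 3906 for MGT day 14 against day 10 (6114 with all arrays), 3020 to 3417 for MGT day 5 against day 3 (4963), 1872 to 2244 for MGT day 7 against day 5, 634 to 2402 for lacZ day 10 against day 7 and 3207 to 3622 for lacZ day 5 against day 3. In at least some of the fits without 1 array, member calls were lost for MGT at day 7 against 5. The same held for lacZ at days 5 against 3 and 3 against 0. For MGT at days 10 against 7 and 14 against 10, and for lacZ at day 10 against 7, all member calls were lost in at least some of these fits.

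At an unadjusted p under 0.05 in limma, these counts of 0 members became 1 to 5 for MGT day 10 against day 7, 2 to 3 for lacZ day 10 against day 7 and 2 for MGT day 14 against day 10, while both counts of 0 among the 5 members measured on every array stayed 0. The 0 genes for lacZ day 10 against day 7 became 2344.

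With the replicate number as a block 11537 genes passed on average, against 11544 without it. Over 55 pairs of groups the deviations of same-numbered arrays correlated at -0.0907 to 0.156, with 3 over 0.1. No strong effect shared by number was thus seen, but this cannot say whether the numbers pair the samples. A random slide block was not estimable, since each group lies on 1 slide. Scaling on probes above background on every array moved the share of calls that were higher by day to 51.7% (day 3, 40.6% in the reported fit), 50.2% (day 7, 39.9%), 49.6% (day 10, 38.6%) and 52.3% (day 14, 38.4%), where the median of all genes moved to 0.019, against -0.093. With normexp and the deposited table the share was 48.7% and 49.5% at day 14, and 55.8% and 55.9% for the change (44.7%). Signals near background limit Pln, Casq1 and, in lacZ cultures, Ryr2, Sln and Trdn.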
